A study of Mus musculus with 14 samples.

Results

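Within the polysomes of 3T3 cells, a mouse fibroblast line, mRNA 3′ ends were compared between light and heavy sucrose-gradient fractions. Light polysomes were the libraries named 2.5 and 4.5 and heavy polysomes those named 7.5 and 12. Members were the poly(A) sites with at least 100 read counts over these 4 libraries, each library divided by the factor in the file headers. They were 15697 of the 33590 sites in the table and held 98.97% of the counts of the 4 libraries. Neighbouring sites of a strand were joined into a locus when the gap between them was at most 2000 nt. The members lay in 9963 loci, of which 6464 held 1 member, 2139 held 2 and 1360 held 3 or more, with 11 at most. In the 3499 loci with 2 or more members, the outermost ones formed a pair, proximal being closer to the 5′ side.

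The series lists 14 samples, and its gradient was made once, from 3T3 cells, with 1 library per fraction. The treatment entry of its labels names only the 2P-Seq protocol and the fractionation, and no agent. The labels name no genotype or further cell detail. The libraries named 0 and 1 stayed out of the comparison. Each library was made by 2P-Seq, in which RNA carrying a poly(A) tail is trimmed with RNase T1, primed at the tail, circularised, amplified and read from its 3′ end. Because the lysate is a bulk one, a share of cells with more ribosomes per mRNA and a change in every cell cannot be told apart. Sites were not paired with gene names, since no annotation of the mm9 build was used here, so the cell line was not checked against marker genes, no sequence is shown, and positions stand in place of names.

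In a sucrose gradient an mRNA sediments further the more ribosomes it carries. The number of ribosomes depends on the length of the coding sequence and on how often translation starts, so short coding sequences sit in light polysomes even when well translated. Tandem 3′ ends of a gene usually share the coding sequence and differ in the length of the 3′ untranslated region, where microRNAs and RNA-binding proteins can act. The difference between the 2 ends of a locus therefore compares mRNAs that can differ in 3′ sequence alone. The study's stated theme was how this choice goes with mRNA stability and translation. A locus as defined here can also join ends of neighbouring genes, and then the comparison is between genes.

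The libraries 2.5, 4.5, 7.5 and 12 held 6668635, 9200657, 10420511 and 11575417 counts. Their header factors were 0.532, 0.829, 1 and 0.852, and after scaling they held 26.3%, 23.3%, 21.9% and 28.5% of the polysomal counts. In the light libraries 13.8% and 10.9% of counts fell on the top 10 sites of that library, in the heavy ones 6.59% and 7.00%. Members had a median of 637 counts over the 4 libraries, and 96.6% passed the authors' own filter. The shift is the measure defined next. In the 404 members within 10 counts of the minimum its median was 0.35, and in the 441 sites that missed the minimum by at most 10 counts it was 0.27.

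The shift of a site is the log2 ratio of its scaled counts in the heavy libraries to those in the light ones. More 3′ ends were heavy than light. The median shift was 0.40, with the middle 50% between -0.55 and 1.13, and 9653 sites (61.5%) were above 0. At least 2-fold more in heavy polysomes were 4593 sites (29.3%), and at least 2-fold more in light ones 2676 sites (17.05%). The scaled count was highest in fraction 12 for 7139 sites (45.5%), in 2.5 for 3530 (22.5%), in 7.5 for 2723 (17.3%) and in 4.5 for 2305 (14.7%). The excess of heavy sites rests on fraction 12. Without that library the median shift was -0.06 and 48.0% of sites were above 0. These values also depend on the factor of fraction 12. Relative to fraction 7.5 it was 0.852 in the headers, 1.02 by TMM scaling, 1.14 by RLE scaling and 1.11 by library totals. With library totals the median shift was 0.38. The 2-fold shares and the peak fractions were counted with the header factors only.

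**Figure D1:**
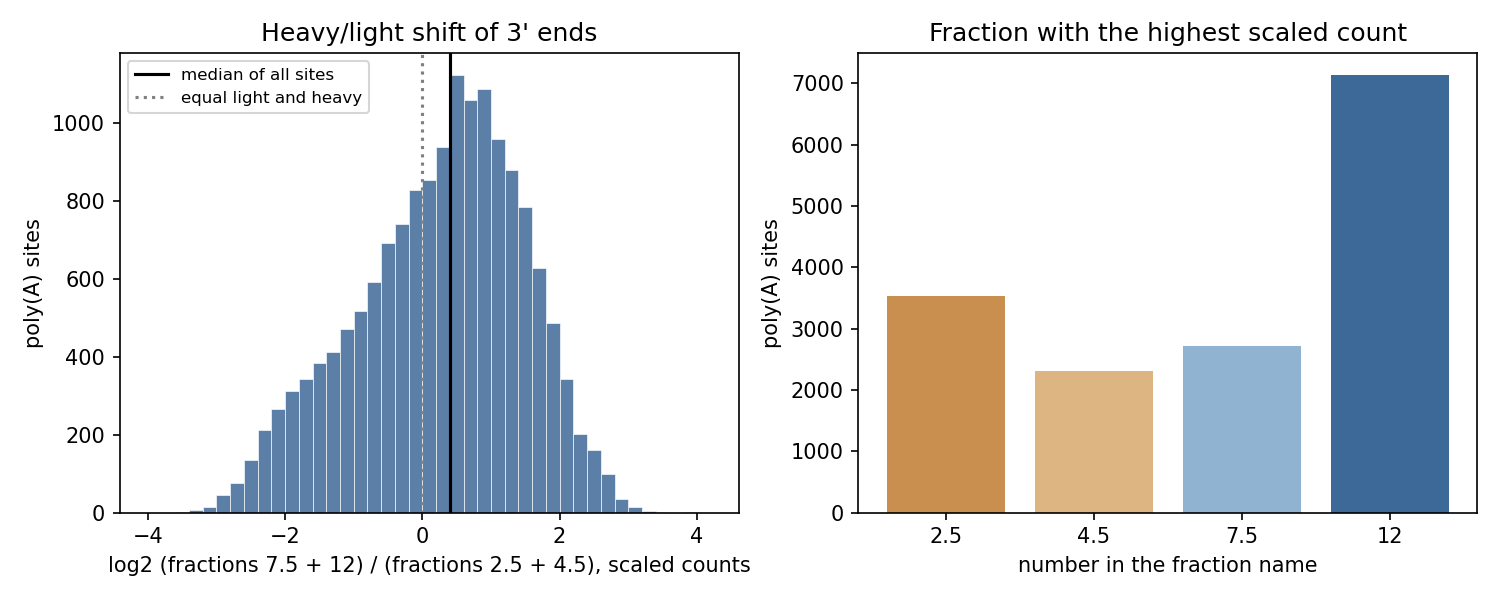
Left, number of poly(A) sites by heavy/light shift (log2 of scaled counts, bins of 0.2), with the median at 0.40. Right, number of sites whose scaled count was highest in each fraction, which is largest for fraction 12 (7139 of 15697 sites).

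Light 3′ ends led only at the very top of the order of abundance, and over all sites the shift did not fall with abundance. In 4 groups of equal size from the least to the most abundant sites, its median was 0.33, 0.35, 0.44 and 0.51. The Spearman correlation of shift with counts was 0.046. The 100 most abundant sites had a median shift of -0.36 and 43.0% of them were above 0 (Wilson 95% interval 33.7 to 52.8). The 1000 most abundant had a median of 0.48, with a middle 50% from -0.89 to 1.51. The 3 sites with the highest scaled counts of all were light ones. On the plus strand of chromosome 3, the site at 90409962 held 341020, 325515, 96126 and 77075 scaled counts in fractions 2.5, 4.5, 7.5 and 12. The nearby site at 90418335 held 322266, 241982, 67044 and 59475. Both lost ground after fraction 4.5, and neither passed the test described next (edgeR adjusted p = 0.135 and 0.0947).

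On the X chromosome (minus strand, 163645025), the last of these sites held 402839 scaled counts in fraction 2.5 and 70132, 28779 and 35277 in the fractions after it. It was 7.38-fold more abundant in light than in heavy polysomes (exact 95% interval 7.32 to 7.45). The intervals of such ratios cover counting error only, since reads from PCR are not independent molecules. Most of its signal, 75.01%, was in fraction 2.5, and it was called (edgeR adjusted p = 0.0435, slope -1.59). Its slope was -0.71 without fraction 2.5 (edgeR adjusted p = 0.450), -1.65 without 4.5 (0.145) and -1.49 without 7.5 (0.0986). The next site, on chromosome 2 (plus strand, 13504452), held 114445, 78685, 52201 and 185927 scaled counts and so was high in both outer fractions. The site on chromosome 10 (minus strand, 90579536) held 79118, 45559, 87068 and 136064, and that on chromosome 17 (minus strand, 71343637) held 36322, 107827, 77670 and 36508. The chromosome 17 site peaked in the middle of the gradient, where a comparison of light with heavy gave a shift of only -0.34. None of the last 3 was called (edgeR adjusted p = 0.715, 0.540 and 0.939).

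Shifts were tested as a slope of counts on the log2 of the number in the fraction name, a log2 change per doubling of that number. The edgeR quasi-likelihood test was used, with Benjamini-Hochberg adjustment over all 15697 sites. With 1 library per fraction, the error rests on how far the 4 libraries depart from a straight line. For each site this error was moderated towards that of all sites, so it is not the site's own departure alone. Technical and biological scatter cannot be told apart. The test called 478 sites as heavier (3.05% of those tested) and 540 as lighter (3.44%). Called heavier sites had a median slope of 1.45 and shifts from 1.68 to 3.99, and called lighter ones a median slope of -1.37 and shifts from -3.60 to -1.81. The median slope of all sites was 0.25. The adjusted p of the 12 called sites named below was 0.0421 throughout, close to the threshold of 0.05. Leaving out fraction 4.5 ended every call: edgeR then called 0 sites, though 1306 heavier and 1254 lighter ones had an unadjusted p under 0.05 (3053 and 1854 with all 4 libraries). The calls became 2012 heavier and 58 lighter if 2.5 was dropped, 446 and 70 if 7.5 was, and 987 and 1477 if 12 was. With RLE scaling in place of the header factors they were 669 and 1273, and the median slope of all sites fell by 0.15.

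Among called sites with at least 1000 counts, 136 of 205 heavier ones rose in share of the library at every step and 162 of 193 lighter ones fell at every step. The slope test favours such profiles, so these counts are no separate finding. Over all sites, by scaled count rather than share of the library, 10.8% rose and 10.5% fell at every step. The steepest rise was on chromosome 10 (minus strand). At 36854651 the scaled counts were 47.0, 145, 352 and 1068, a ratio of heavy to light of 7.41 (exact 95% interval 6.23 to 8.86, slope 1.97 ± 0.38 SE). A second end of the same locus, at 36853178, held 226, 687, 1335 and 4547 (ratio 6.44, interval 5.95 to 6.98). These ends, in a locus with 7 members, each placed about the same share of their counts in fraction 12, 66.3% and 66.9%.

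The site on chromosome 4 (minus strand, 83107784) held 166, 373, 1150 and 2705 scaled counts, 7.16-fold more in heavy polysomes (interval 6.45 to 7.97). On chromosome 3 (plus strand, 95751307) the counts were 320, 842, 2527 and 4780, a ratio of 6.29 (interval 5.86 to 6.76). On chromosome 9 (minus strand, 24912574) they were 86.5, 147, 636 and 1047, a ratio of 7.20 (interval 6.14 to 8.50). In each of these sites the 7.5 and 12 libraries lay above both light ones, and the rise was spread over all steps.

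The remaining heavy site had another profile. On chromosome 11 (minus strand, 11830510) the scaled counts were 884, 1265, 1374 and 14806, so 80.8% of the signal was in fraction 12 and 7.5% in fraction 7.5. Its ratio of heavy to light was 7.53 (interval 7.14 to 7.94). Without fraction 12 its slope was 0.41 (edgeR adjusted p = 0.565), whereas the other 5 heavy sites kept their call without that library.

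The light sites named here resembled each other in profile, which follows at least in part from how they were chosen. They were the steepest called light sites whose share of the library fell at every step. The steepest, on chromosome 17 (plus strand, 33962774), held 1941, 253, 119 and 114 scaled counts and was 9.43-fold more abundant in light polysomes (exact 95% interval 8.15 to 10.9, slope -1.83 ± 0.37 SE). On chromosome 15 (plus strand, 80087307) the counts were 1360, 311, 105 and 90.4, 8.55-fold more in light polysomes. On chromosome 11 (minus strand, 55260143) they were 8018, 1851, 558 and 587, 8.62-fold more. The drop was largest between the first fractions, and the 2 heavy libraries were close to each other.

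The same held for the site on chromosome 2 (plus strand, 164708661), with 2323, 369, 174 and 163 scaled counts. The site on chromosome 9 (minus strand, 20157026) held 1221, 227, 94.0 and 93.9, and a second site on chromosome 2 (plus strand, 121276796) held 7609, 1746, 603 and 613. The 6 light sites had between 72.0% and 80.0% of their signal in fraction 2.5. Without that library their slopes shrank to between -1.28 and -0.83 and the calls were lost (edgeR adjusted p from 0.107 to 0.292). Without fraction 4.5 the 12 named calls were lost as well (edgeR adjusted p from 0.145 to 0.176), but the slopes stayed between 1.63 and 1.97 for heavy sites and between -1.91 and -1.70 for light ones. Calls were also lost at 55260143 on chromosome 11 and 121276796 on chromosome 2 without fraction 7.5 (edgeR adjusted p = 0.0636 and 0.0693), and at 95751307 on chromosome 3 without 2.5 (0.0652), with slopes of -1.63, -1.56 and 1.78.

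**Figure D2:**
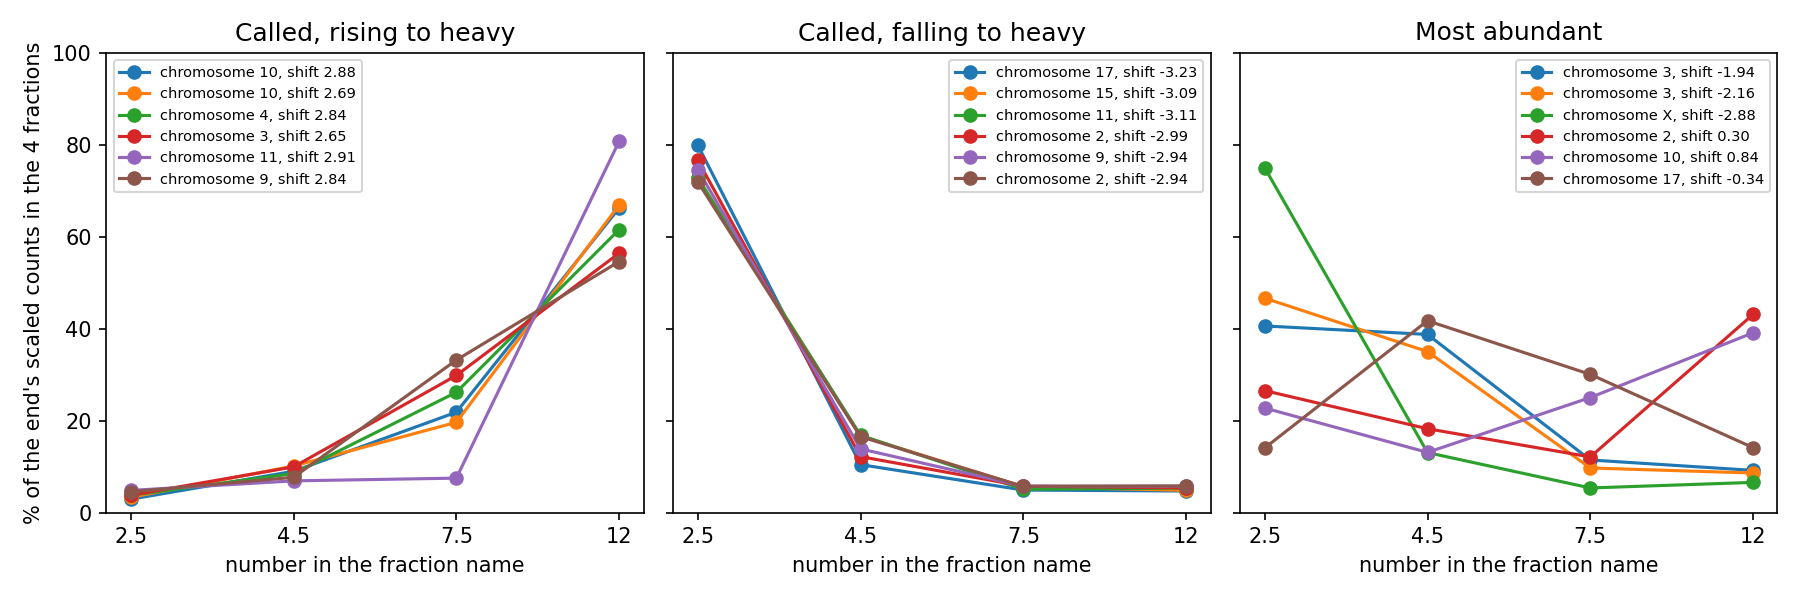
Percent of each site's scaled counts (y axis) in fractions 2.5, 4.5, 7.5 and 12 (x axis), 1 line per site, for the 6 steepest called heavy sites, the 6 steepest called light sites and the 6 most abundant sites. Light sites have 72.0% to 80.0% in fraction 2.5, and the heavy chromosome 11 site has 80.8% in fraction 12.

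The ends of a locus shared their place in the gradient. Over 5734 adjacent members of the same locus, the shifts correlated with a Pearson r of 0.95 (Spearman 0.94) and differed by a median of 0.21 log2. Over 9922 adjacent members that belonged to neighbouring loci of the strand, r was 0.077 (Spearman 0.082) and the median difference 1.06. A difference of at least 2-fold was seen in 1.80% of the first and 52.2% of the second. The points share the same 4 libraries, and the ends of a locus usually share a coding sequence, so these values are descriptions without a test. For the most proximal against the most distal member of the 3499 loci, r was 0.93, and it lay between 0.91 and 0.94 with any 1 library left out. Where a locus held 2 or more called sites, they never pointed in opposite directions: of 179 such loci, 88 had heavier calls alone and 91 lighter calls alone. Called shifts began at 1.68 for heavier and -1.81 for lighter sites, so opposite calls would need ends far more unlike than usual. This count therefore follows largely from the likeness above and adds no support to it. Over all sites, 3.05% were called heavier and 3.44% lighter.

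**Figure D3:**
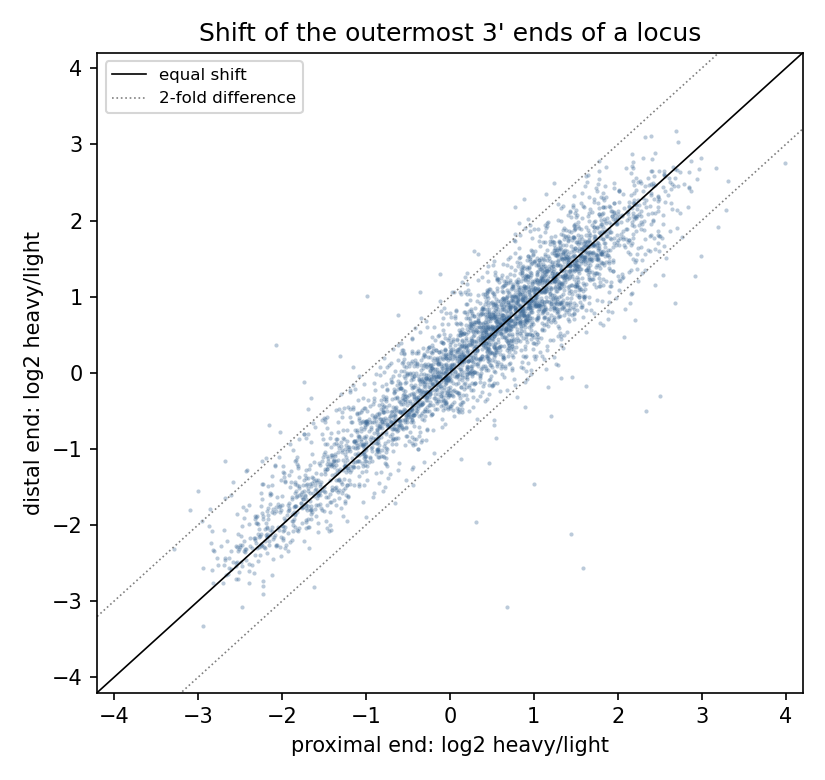
Heavy/light shift (log2) of the distal end (y axis) against that of the proximal end (x axis), 1 point for each of 3499 loci, with lines for equal shifts and for 2-fold differences. Points follow the line of equal shift (Pearson r 0.93), and 94 pairs lie beyond the dotted lines.

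Between the ends of a locus, the distal one was slightly heavier. The median difference, distal minus proximal, was 0.037 log2, with the middle 50% between -0.20 and 0.28, and the distal end was the heavier in 1914 of 3499 pairs (54.7%, Wilson interval 53.1 to 56.3). Such intervals over sites or pairs describe their number alone, since all share the same 4 libraries, and they are no test of a direction. Without fraction 2.5 the median was 0.017 and the share 52.2%. The median was 0.018 for the 2 most abundant ends of each locus, 0.019 with ends linked within 500 nt, and 0.014 in loci with exactly 2 members. The median shift was 0.45 for proximal and 0.47 for distal ends. The counting error of a single pair's difference had a median of 0.22, about the size of the typical difference of 0.24. A difference of at least 2-fold was seen in 94 pairs (2.69%), 43 where the distal end was heavier and 51 where it was lighter. In 952 pairs (27.2%) the difference lay beyond the 95% interval of its own counting error, and in the others it did not.

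The median difference rose with the distance between the ends, but its size in either direction went with distance more closely. The Spearman correlation with distance was 0.11 for the difference and 0.25 for its size. The 818 pairs under 100 nt apart had a median of 0.0024 log2 and a heavier distal end in 50.7% (Wilson 95% interval 47.3 to 54.2). From 100 nt to under 500 nt (938 pairs) the median was 0.027, from there to under 1000 nt (620 pairs) 0.039, and from there to under 2000 nt (786 pairs) 0.090. At 2000 nt or more (337 pairs) it was 0.15, with 64.1% heavier distal ends (interval 58.8 to 69.0). The middle 50% of every group spanned 0, so the direction of a single pair was not set by distance. Differences of at least 2-fold were not mostly towards a heavier distal end. From 1000 nt to under 2000 nt there were 15 heavier and 16 lighter, and from 2000 nt on 6 heavier and 10 lighter.

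Deeper pairs gave the same order of medians up to 2000 nt. Among 493 pairs with at least 1000 counts at both ends, 61.7% had a heavier distal end, and the median difference was 0.013, 0.042, 0.079 and 0.19 log2 in the first 4 distance groups. In the last, with only 32 pairs, it was 0.12. Among the 88 deep pairs from 1000 nt to under 2000 nt apart 71.6% had a heavier distal end (interval 61.4 to 80.0), against 58.9% of the 175 deep pairs under 100 nt apart (interval 51.5 to 65.9). In the groups between it was 56.1% and 59.5%, so this share did not rise below 1000 nt as the medians did. In loci with exactly 2 members the medians were -0.00086, 0.0084, 0.038 and 0.079 in the first 4 distance groups. Over all pairs at least 1000 nt apart the median was 0.12, and leaving out 1 library moved it to between 0.054 (without fraction 2.5) and 0.16 (without fraction 4.5). It stayed above 0 in each case, while that of pairs under 100 nt apart stayed between -0.0033 and 0.00047.

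**Figure D4:**
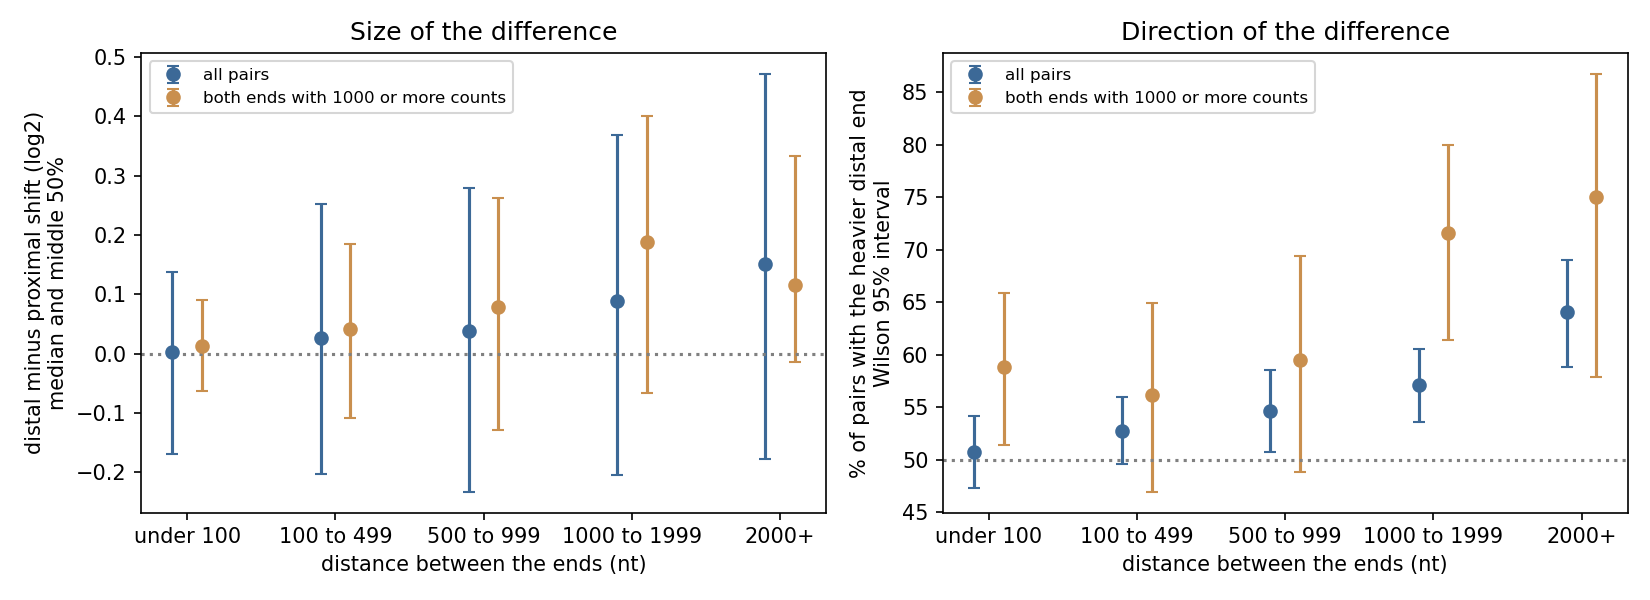
Distal minus proximal shift (left, median and middle 50%, log2) and percent of pairs whose distal end was the heavier (right, with Wilson 95% intervals), by distance between the ends in nt, for all pairs and for pairs with at least 1000 counts at both ends. The share rises from 50.7% to 64.1% over all pairs.

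The steps between fractions depended on how they were summarised. For pairs at least 1000 nt apart, the log2 distal/proximal ratio of a pair rose by a median of 0.16 from fraction 2.5 to 4.5, by 0.041 from 4.5 to 7.5 and by 0.023 from 7.5 to 12. For pairs under 100 nt apart the same steps were -0.0043, 0.0024 and -0.0095. The median ratio in each fraction gave another order. It was 0.44, 0.46, 0.51 and 0.53 over all pairs, 0.31, 0.37, 0.32 and 0.38 for pairs from 1000 nt to under 2000 nt apart, and 0.46, 0.51, 0.64 and 0.76 for pairs farther apart than that. By this measure the first step was not the largest for all pairs or for the farthest ones.

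In loci with 3 or 4 members, the later ends were also heavier than the first by the median difference. In 830 loci with exactly 3, the median difference from the first end was 0.046 log2 for the middle and 0.065 for the last end. In 317 loci with exactly 4 it was 0.067, 0.11 and 0.13 for the ends that followed. The last end was heavier than the first in 57.5% and 60.6% of these loci. Other measures gave no such order in loci with exactly 4. The median shift of their ends was 0.53, 0.58, 0.53 and 0.60. The share heavier than the first was 57.1%, 61.2% and 60.6%. These loci are among the 3499 above.

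Few single pairs passed a test. The pair model compared the ends within each library, so no scaling between fractions entered, and gave the difference of slopes, distal minus proximal, per doubling of the number in the fraction name. Of 3499 pairs, 3 had a heavier distal end (0.0857%) and 4 a lighter one (0.114%) by edgeR at an adjusted p under 0.05. At an unadjusted p under 0.05 there were 335 and 192. DESeq2 called 14 and 10.

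Among the heavier distal ends, the pair on chromosome 15 (plus strand, proximal 102329132, distal 102330496) belonged to a locus with 7 members. The distal share of the pair's reads was 7.70%, 11.7%, 17.6% and 21.8% from fraction 2.5 to 12 (slope difference 0.78 ± 0.10 SE, edgeR adjusted p = 0.0292). The proximal end held 1059, 2509, 1540 and 1743 scaled counts and the distal end 88.4, 333, 328 and 486. Both ends were low in fraction 2.5, the distal one more so.

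The second pair, also on chromosome 15 (plus strand, 80087307 and 80087969), lay in light polysomes at both ends. Its proximal end is the light site described above. The distal end, far more abundant, held 42594, 17390, 7874 and 9292 scaled counts, and its share rose from 96.9% to 99.04% (0.76 ± 0.08, edgeR adjusted p = 0.0207). In this locus both ends fell towards the heavy libraries, and the proximal end, with 77 reads left in fraction 12, fell further.

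The last of them, on chromosome 6 (plus strand, 67234040 and 67236402), was the heavy counterpart. Its proximal end held 15076, 12233, 36407 and 49171 scaled counts and its distal end 111, 129, 511 and 957. The distal share went from 0.731% over 1.04% and 1.38% to 1.91% (0.62 ± 0.08, edgeR adjusted p = 0.0292). The distal end is a minor one, with 1492 of the pair's 97954 reads.

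The calls with a lighter distal end had larger differences. On chromosome 2 (minus strand, proximal 84511473, distal 84509379), the proximal end rose along the gradient with 79.0, 63.9, 130 and 303 scaled counts, while the distal end fell with 7015, 1745, 650 and 830. The distal share was 98.9%, 96.5%, 83.3% and 73.3% (slope difference -2.29 ± 0.16 SE, edgeR adjusted p = 0.00125). The shifts of its ends, 1.59 and -2.56, differed by -4.15, the widest difference among the 3499 pairs.

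On chromosome 8 (minus strand, 114517343 and 114515681) the proximal end held 1364, 898, 1039 and 2594 scaled counts and the distal end 335, 84.4, 31.0 and 17.6. The distal share fell from 19.7% to 8.59%, 2.90% and 0.674% (-2.12 ± 0.15, edgeR adjusted p = 0.00125). These 2 pairs kept their call with any 1 library left out. Their ends lie 2094 and 1662 nt apart, and whether each belongs to 1 gene was not tested.

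The other lighter calls were closer to the threshold. On chromosome 4 (minus strand, 116274214 and 116273656) the proximal end jumped from 215 scaled counts in fraction 7.5 to 2312 in fraction 12, while the distal end held 141, 59.1, 29.0 and 134. The distal share was 32.8%, 27.7%, 11.9% and 5.47% (-1.42 ± 0.16, edgeR adjusted p = 0.0241). On chromosome 15 (plus strand, 103075390 and 103077120) it was 26.7%, 24.5%, 13.9% and 10.6% (-0.77 ± 0.11, edgeR adjusted p = 0.0458). The proximal end of that pair held 4368, 1995, 3097 and 6204 scaled counts and the distal end 1590, 648, 498 and 735, so the proximal end was high in fraction 12 and the distal end was not.

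**Figure D5:**
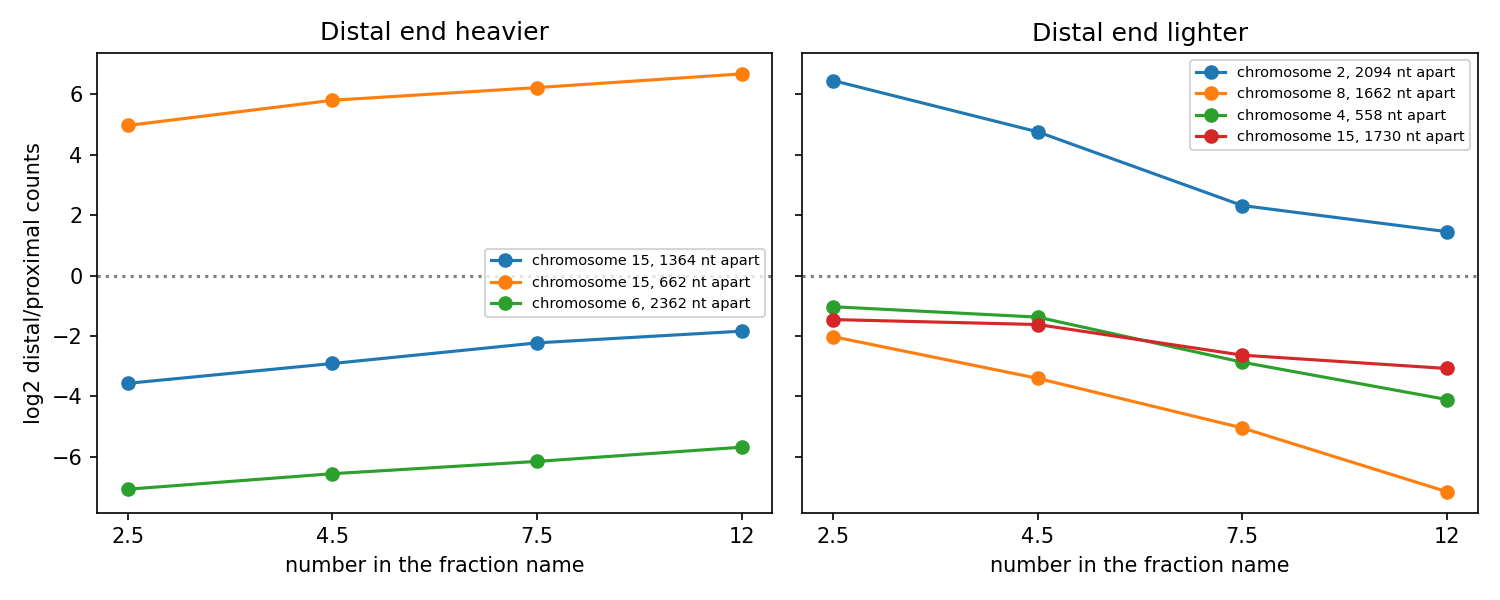
log2 ratio of distal to proximal counts (y axis) in fractions 2.5, 4.5, 7.5 and 12 (x axis) 1 line per pair, for the called pairs, 3 whose distal end was heavier (left) and 4 whose distal end was lighter (right). Each line moves in 1 direction over the 4 fractions, and the pair on chromosome 8 falls furthest below 0.

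The 5 calls other than those on chromosome 2 and chromosome 8 were lost when certain libraries were left out, while their slope differences kept their sign. With any 1 library left out, the slope differences ran from 0.76 to 0.87, from 0.62 to 0.83 and from 0.58 to 0.63 for the 3 pairs with a heavier distal end, in the order given above. They ran from -1.92 to -1.09 for the pair on chromosome 4 and from -1.03 to -0.72 for the lighter pair on chromosome 15. The 3 pairs with a heavier distal end had adjusted p-values (edgeR) of 0.227, 0.0549 and 0.227 without fraction 4.5, of 0.0725, 0.0725 and 0.0987 without 7.5, and of 0.107, 0.0584 and 0.130 without 12. The pair on chromosome 4 had 0.0725 without 7.5 and 0.191 without 12, and the second lighter pair on chromosome 15 had 0.0549, 0.119 and 0.166 without 4.5, 7.5 and 12. If fraction 2.5 was dropped, edgeR called 43 heavier and 48 lighter distal ends.

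Of the pairs next in rank, none was called by edgeR. On chromosome 11 (plus strand, 94201234 and 94203156) the distal share was 31.1%, 40.7%, 58.8% and 62.2% (slope difference 0.89 ± 0.14 SE, adjusted p = 0.0755 by edgeR). For the ends at 8848983 and 8847018 on chromosome 19 (minus strand) it was 89.97%, 89.5%, 75.3% and 51.9% (-1.45 ± 0.22, edgeR adjusted p = 0.0712). DESeq2 called both. The distal share of the chromosome 10 pair (minus strand, 93324078 and 93323665) went from 58.4% in fraction 2.5 to 74.7% in 12, and that of the chromosome 1 pair (minus strand, 156944657 and 156943497) from 2.13% to 5.15%. On chromosome 19 (minus strand, 44624741 and 44623079) it went from 9.79% to 3.60%.

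The most abundant pairs showed small differences. The chromosome 10 pair (minus strand, 90579536 and 90579320) had a distal share of 0.958%, 1.02%, 0.835% and 0.863% of 285377 reads (slope difference -0.098 ± 0.069). On chromosome 19 (minus strand, 34316013 and 34315578) it was 4.63%, 3.27%, 3.84% and 4.33%, with both ends heavy at shifts of 1.78 and 1.84. The pairs on chromosome 2 (plus strand, 13504286 and 13504452) and chromosome 6 (plus strand, 17290761 and 17291322) had slope differences of -0.22 ± 0.13 and 0.33 ± 0.11. None of the 4 was called (edgeR adjusted p from 0.253 to 0.980).

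The place in the gradient was also set beside mRNA stability, which rests on other libraries of the series. Over 15037 members that passed the authors' filter and had a half-life in the authors' deposited table, the Spearman correlation of shift with half-life was -0.016. With sites split into 4 groups of equal size from the shortest to the longest half-life, median shifts were 0.30, 0.54, 0.56 and 0.19. The spread grew with half-life, with an SD over sites of 0.89, 1.05, 1.24 and 1.51. In the longest-lived group the middle 50% ran from -1.27 to 1.28, so long-lived mRNAs lay at both sides of the gradient. For 3180 pairs with both half-lives, the difference in shift correlated with the log2 ratio of half-lives with a Spearman rho of 0.032. The distal end was the shorter-lived in 1825 of all these pairs (57.4%), in 30 of 44 where it was at least 2-fold lighter, and in 19 of 38 where it was at least 2-fold heavier. These shares are descriptions, and the difference between them was not tested.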

How the data were processed

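The authors deposited raw read counts per poly(A) site, which they annotated from 3P-Seq in 3T3 and mouse embryonic stem cells, with positions in mm9, per the file headers. The submitters' processing notes name Bowtie and mm9. The sources used here do not give its version. The headers give 1 factor per library to divide by. Half-lives are the authors' deposited values, used for ranks and ratios. The authors' ribosomes per mRNA were recomputed from all 6 scaled fractions for 30164 of 30164 sites (within 1e-06) and not used otherwise. Fractions are called by the number in the column name, since the labels number them otherwise. The columns of the gradient were matched to the gradient as a group. Per-sample columns left unmatched numbered 0.

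Shifts used a pseudocount of 0.5 counts. The tests were run in edgeR 4.0.16 under R 4.3.3 (quasi-likelihood, robust), sites with the header factors as library sizes and pairs with a term per library. Both scripts were tested on simulated data. DESeq2 1.42.0, other scalings, count minimums, linkage distances and leaving out each library were alternatives. SE is the slope divided by the root of F.

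Named sites were the 6 steepest called in each direction with at least 1000 counts whose share of the library total moved 1 way at every step, and the 6 most abundant. Named pairs were the called ones, filled to 6 a direction by unadjusted p, and the 4 most abundant. The members, lists and named rules were chosen with earlier results of these data known. Gene lists could not be used without gene names.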

Additional observations from a re-analysis of the deposited data

How the results depend on the processing

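The settings with 1000 counts at both ends, exactly 2 members per locus, and all alternatives for pairs at least 1000 nt or under 100 nt apart were chosen after seeing the data. No paired analysis was possible because the fractions are single libraries that share no replicate number with other groups as a pairing. The cause of the moves was not tested. A dropped library leaves fewer samples, and count minimums and linkage change which features are tested.

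Heavier and lighter sites numbered 1057 and 1148 with TMM, 669 and 1273 with RLE scaling, 1090 and 1144 with DESeq2, 784 and 644 on fraction rank, 1514 and 1242 with no count minimum, and 734 and 494 with 500 counts. With RLE 34.5% of calls were heavier against 47.0% with the header factors. As groups, 2 light against 2 heavy libraries, edgeR gave 0 calls (2079 heavier and 1855 lighter had an unadjusted p under 0.05). All 478 and 540 calls were also called with TMM. Leaving out a library gave 0 to 2012 heavier and 0 to 1477 lighter sites.

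Pairs with a heavier and lighter distal end numbered 0 and 2 with the 2 most abundant ends, 14 and 10 with DESeq2, 1 and 4 with 5000 nt linkage, and 3 and 6 on fraction rank. EdgeR gave 0 calls as groups of 2 (unadjusted p under 0.05 in 196 and 154), with 300 counts per end (231 and 124) and with 500 nt linkage (174 and 139). Leaving out a library gave 0 to 43 and 2 to 48.

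The median difference of pairs, 0.037, was 0.018 with the 2 most abundant ends (52.8% heavier), 0.019 with 500 nt linkage (53.0%), 0.014 with exactly 2 members (52.4%), 0.046 with a pseudocount of 5 (56.5%), and 0.048 with 1000 counts at both ends (61.7%). Without 1 library it was 0.017 to 0.054 and the share 52.2% to 55.0%. For pairs at least 1000 nt apart, the share without 1 library was 55.8% to 61.4% and the median 0.054 to 0.16. With 1000 counts at both ends they were 72.5% and 0.17.

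The median site shift, 0.40, was 0.38 with library totals and 0.46 with 500 counts (62.8% above 0). Without 1 library it was -0.056 to 0.44, and the share 48.0% to 62.2%.

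Only slopes of uncalled named sites and pairs changed sign. Without 1 library, the site on chromosome 2 (13504452) ranged from -0.71 (without 12) to 0.86, and that on chromosome 17 (71343637) from -1.10 to 0.73 (without 12), with 0.17 without 4.5. The chromosome 2 pair (13504286) ranged from -0.37 to 0.066 (without 2.5) and the chromosome 19 pair (34316013) from -0.17 to 0.30 (without 2.5), with 0.070 as groups of 2.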

Other observations

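Many 3′ ends did not change in 1 direction along the polysomes. Of the 15697 sites, 1698 (10.8%) rose in scaled count at every step from fraction 2.5 to 12 and 1649 (10.5%) fell at every step. For 3497 sites (22.3%) both outer libraries, 2.5 and 12, lay above both middle ones, as at the abundant site on chromosome 2 (13504452). For 2225 sites (14.2%) both middle libraries lay above both outer ones, as at the site on chromosome 17 (71343637). Scaled totals were themselves higher in 2.5 and 12 (26.3% and 28.5%) than in 4.5 and 7.5 (23.3% and 21.9%). All of these shares therefore depend on the scaling. They were not compared with those of a random order of the 4 libraries.

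The share of pairs with a heavier distal end differed between pairs of light and of heavy mean shift. With pairs split into 3 groups by mean shift, in the lightest group the distal end was heavier in 60.0% of 1166 pairs, and 148 against 38 pairs had an unadjusted p under 0.05 by edgeR for a heavier or a lighter distal end. In the heaviest group it was heavier in 48.7% of 1167 pairs, with 88 against 86. Over all 3499 pairs it was heavier in 54.7%, with 335 against 192. The groups were formed from the same 2 shifts whose difference was read. Distal shifts spread less than proximal ones (SD 1.18 against 1.23), which by itself lowers the difference from the lightest to the heaviest group. These shares and counts therefore do not show that the tendency depends on place in the gradient. The difference between these groups was not tested.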
